A study of Mus musculus with 8 samples.

Results

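The genes described here are 10 members of the Notch pathway, taken as a fixed list out of the 46073 genes with an expression value. The list holds the receptors Notch1, Notch2 and Notch3, the ligands Jag1, Jag2 and Dll1, the DNA-binding mediator Rbpj, and the target genes Hes1, Hey1 and Heyl. They were found by symbol through their Ensembl identifiers, and all 10 had a value in every library. Of these, 6 reached at least 1 FPKM (a count of fragments scaled by transcript length and library depth) in at least 2 libraries and were tested. The other 4, Notch3, Jag2, Hey1 and Heyl, did not.

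RNA-seq was performed on 3T3L1 cells, a mouse preadipocyte line that turns into adipocytes under a hormonal cocktail of dexamethasone, IBMX and insulin. A knockout line (Ddx6-KO) was compared with a control line (TOM) before the cocktail (day 0) and 2 days into it (day 2), with 2 libraries in each of the 4 groups. The days follow the sample titles, since the treatment note in the labels gives every sample the same text, a harvest on day 2 of induction. Both lines carry a lentivirus with Cas9 and a guide RNA, aimed at an exon of Ddx6 in the first and at the fluorescent protein gene tdTomato in the second. Ddx6 is an RNA helicase of processing bodies, cytoplasmic granules in which mRNAs are stored, repressed and decayed. Both lines were selected with puromycin and cloned by limiting dilution, so the effect of the guide cannot be told apart from differences between clones. No source used here says whether the 2 libraries of a group are separate cultures, and p-values then measure only the spread between these libraries, which may be technical.

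Notch receptors are membrane proteins that are activated by ligands of the Jagged and Delta families on a neighboring cell. Binding triggers cleavage by an ADAM protease and then by gamma-secretase, which frees the intracellular domain to enter the nucleus. There it joins Rbpj, which otherwise recruits corepressors, and turns on genes of the Hes and Hey families, which are transcriptional repressors. Dlk1, an inhibitor of adipogenesis that is abundant in preadipocytes, resembles the Delta ligands but lacks the domain by which they activate Notch.

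Promoter sequences were taken from RefSeq (GRCm38.p6) as the 300 bases from 250 before to 50 after each start site. Of the 10 genes, 7 matched, with 9 promoters. The target genes Hes1, Hey1 and Heyl had no promoter entry, so no promoter of a target was searched. Notch1, Jag1 and Rbpj are printed because their mRNAs carry the differences described here, and because Rbpj holds matches to the core of the Rbpj binding site. Capitals mark TGGGAA, the Rbpj core, and CACGCG, a site that Hes and Hey proteins are known to bind, each on either strand. The Notch1 sequence is chr2:26503773-26504072 on the minus strand, inside the annotated gene, the Jag1 sequence is chr2:137116471-137116770 on the minus strand, across the annotated start, and the Rbpj sequence is chr5:53590096-53590395 on the plus strand, inside the annotated gene.
Notch1 promoter: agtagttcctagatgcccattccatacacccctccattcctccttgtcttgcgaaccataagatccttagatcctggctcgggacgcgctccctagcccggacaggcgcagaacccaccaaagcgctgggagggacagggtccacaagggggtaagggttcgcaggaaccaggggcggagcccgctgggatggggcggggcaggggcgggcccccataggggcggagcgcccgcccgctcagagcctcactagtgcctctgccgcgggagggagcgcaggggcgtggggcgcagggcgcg
Jag1 promoter: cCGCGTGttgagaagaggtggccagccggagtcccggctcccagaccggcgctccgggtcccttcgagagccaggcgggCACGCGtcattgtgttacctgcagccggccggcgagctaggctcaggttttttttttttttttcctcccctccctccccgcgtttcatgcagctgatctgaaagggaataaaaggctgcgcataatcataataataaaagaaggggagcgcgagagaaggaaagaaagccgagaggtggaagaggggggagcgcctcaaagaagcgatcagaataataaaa
Rbpj promoter: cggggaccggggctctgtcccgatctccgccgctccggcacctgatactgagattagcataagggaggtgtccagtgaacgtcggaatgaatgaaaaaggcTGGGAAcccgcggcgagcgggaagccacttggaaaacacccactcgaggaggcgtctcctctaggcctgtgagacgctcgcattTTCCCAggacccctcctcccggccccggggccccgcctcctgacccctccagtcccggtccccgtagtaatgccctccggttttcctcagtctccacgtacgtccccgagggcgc
The printed Rbpj promoter held 2 core matches, at bases -149 and -65 from the start, on the plus and minus strands. A second Rbpj promoter, chr5:53590236-53590535, overlaps it and held only the minus-strand match, at base -205 from its own start. None of the other 6 matched genes held the core, and none of the 7 held the longer form GTGGGAA. Across 32851 mouse promoters of the same length, 25.6% held the core and 6.38% the longer form. CACGCG occurred at 2 places in Jag1 and at 1 each in Notch2, Jag2 and the second Dll1 promoter, against 9.27% of all promoters with at least 1 match. CACGTG, searched in the same way, had no match in the 7 genes and occurred in 7.15% of all promoters. These matches describe letters in a window and are not measured binding sites, and the last pair of motifs was added after expression values had been seen.

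Depth was estimated from the spacing of low FPKM values and came to 21100000 fragments for TOM day 0 library 1 and 1480000 to 5690000 for the other 7 libraries. Of low values, 95.2% to 96.6% fell within 0.1 of a whole fragment. The 10 most abundant genes held 41.0% to 59.5% of the FPKM sum. Libraries of a group correlated across genes on the log2 scale at r = 0.950, 0.946 and 0.941 for Ddx6-KO day 0, TOM day 0 and TOM day 2, and at 0.888 for Ddx6-KO day 2. Of 9 preadipocyte and fibroblast markers, 8 passed the filter, with summed levels of 1215 to 2201 FPKM. Summed levels of 6 adipocyte markers, mainly Fabp4, were 535 to 557 FPKM in TOM day 2 and 7.57 to 28.9 FPKM in the other 3 groups. Endothelial markers, a cell type with high Notch activity, summed to at most 6.39 FPKM, with Cdh5 and Tek under 0.5 FPKM in all 8 libraries. Ddx6 itself was at 11.3 and 19.9 FPKM in TOM day 0, 28.8 and 28.4 in TOM day 2, 27.2 and 31.9 in Ddx6-KO day 0, and at a mean of 46.5 ± 4.92 (SD, n = 2) in Ddx6-KO day 2. Its RNA was thus not lower in the knockout line, and since a gene-level FPKM does not read a small edit at a cut site, it could not check the labels.

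Relative to TOM cells, Ddx6-KO cells had less Jag1 and Hes1 mRNA at both days and less Notch1 mRNA at day 2. Of these calls, only that of Jag1 at day 2 held in all alternative settings, which included leaving out single libraries. None of the 6 tested genes was called higher in the knockout line. Notch2 and Rbpj had higher levels there that did not pass the test, although Rbpj at day 0 passed it with a pseudocount of 5 or a filter at 5 FPKM. During induction, Jag1 rose in TOM cells and Rbpj fell in Ddx6-KO cells. Each had a difference of the same sign in the other line that did not pass the test. For neither gene was the change called different between the lines. In the bulk RNA measured here, fewer cells of a type and less RNA per cell cannot be told apart.

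**Figure D1:**
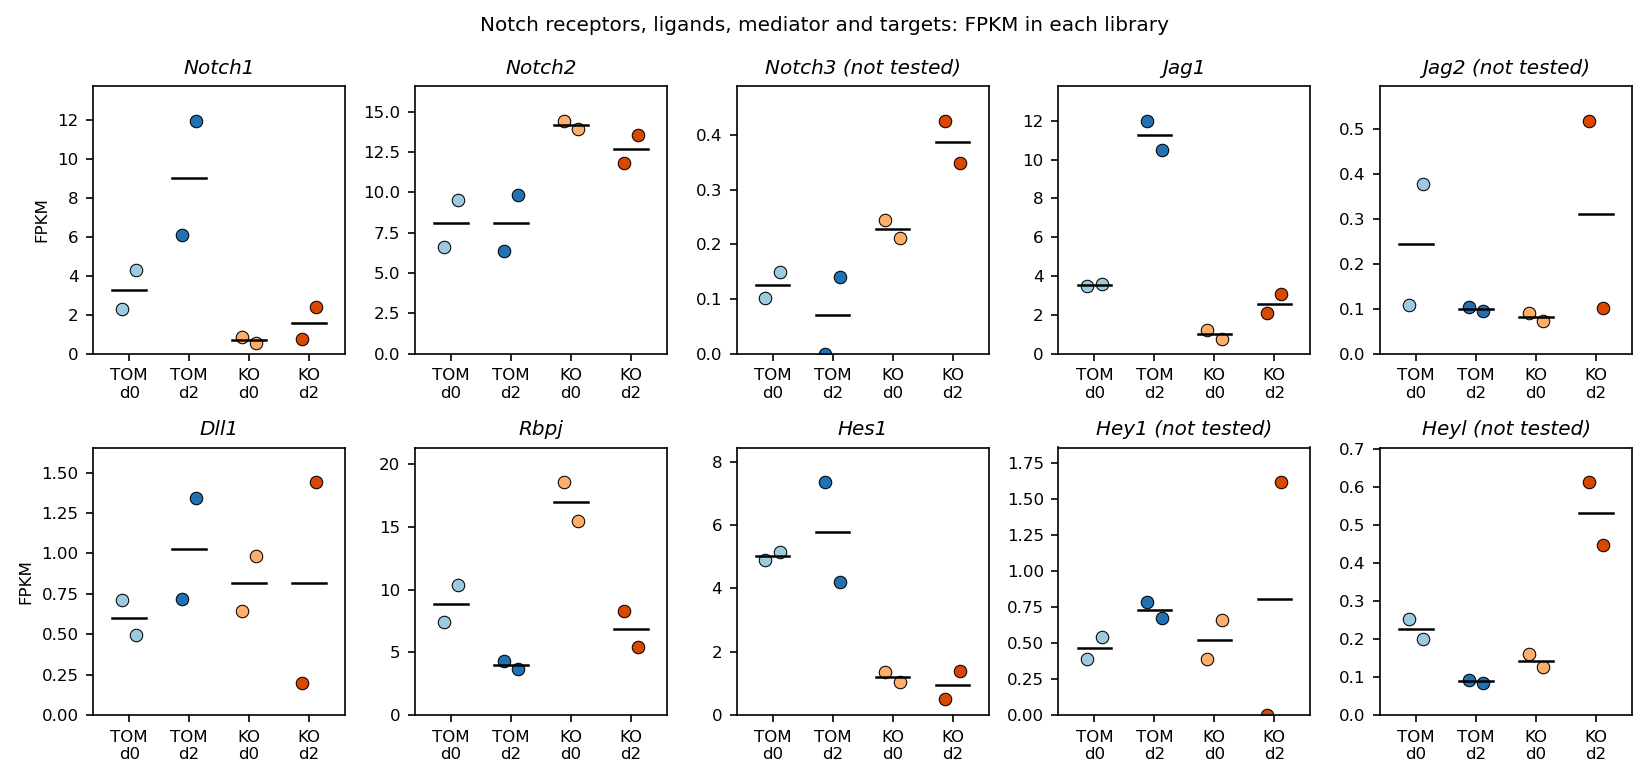
FPKM (vertical axis, starting at 0 and scaled for each gene) of the 10 Notch genes in TOM and Ddx6-KO (KO) cells at day 0 (d0) and day 2 (d2). Each point is a library and each bar the mean of the 2 libraries of a group. The Jag1 and Hes1 points of Ddx6-KO cells lie below all TOM points, and those of Notch2 above all TOM points, while Notch3, Jag2, Hey1 and Heyl are low throughout.

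Differences were tested on log2(FPKM + 1) with limma, in a fit of all 15811 genes that passed the filter, with Benjamini-Hochberg adjustment within a comparison and a threshold of 0.05. A difference on this scale understates the change of genes with low FPKM. In TOM cells, 1 of the 6 tested Notch genes rose from day 0 to day 2, where 3.4% of all tested genes rose and 7.15% were called in either direction, and the median difference of the 6 was 0.23 against 0.03 for all genes. In Ddx6-KO cells, 1 of the 6 fell, where 5.85% of all tested genes fell and 10.7% were called in either direction, and the medians were -0.12 and 0.09. Ddx6-KO minus TOM at day 0 called 2 of the 6 lower, against 4.81% of all tested genes lower and 11.4% in either direction, with medians of -0.51 and 0.05. At day 2 it called 3 of the 6 lower, against 8.58% of all tested genes lower and 18.9% in either direction, with medians of -1.01 and 0.11. The change over induction was not called different between the lines for any of the 6 with limma (4.19% of all tested genes were called in either direction). An unadjusted p under 0.05 (limma) was found for 0 of the 6, against 2916 of all 15811 tested genes. These comparisons share libraries, so that a high library in TOM day 2, for example, enters both the TOM change and the difference at day 2. In fits to the 4 libraries of a comparison alone, the calls that held were Hes1 at day 0 and Jag1 at day 2.

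**Figure D2:**
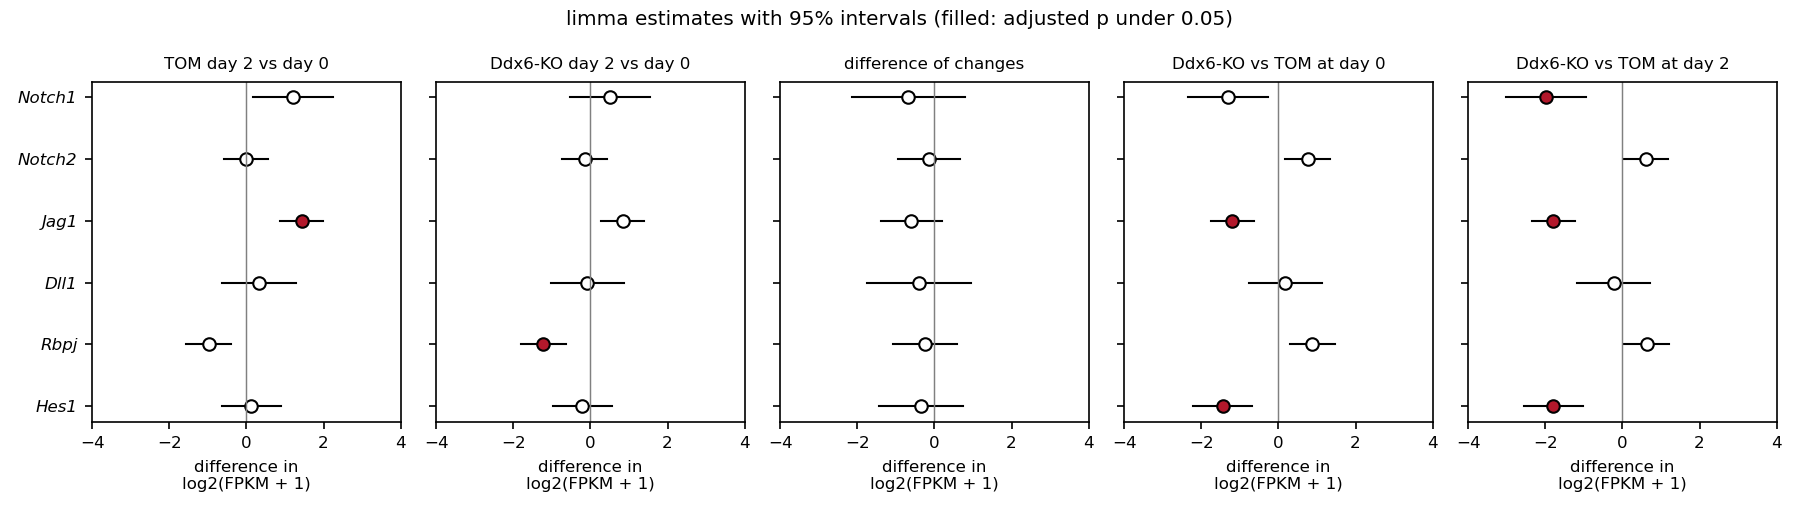
Differences in log2(FPKM + 1) estimated with limma for the 6 tested Notch genes (points) with 95% confidence intervals (lines) in the 5 comparisons. Filled points passed an adjusted p of 0.05, namely Jag1 in TOM cells, Rbpj in Ddx6-KO cells, Jag1 and Hes1 between the lines at day 0, and these with Notch1 at day 2.

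The sum of FPKM over all genes was higher at day 2 than at day 0 in both lines. Rescaling every library to the same sum (TPM) moved the median of all genes from 0.03 to -0.14 in TOM cells, from 0.09 to -0.27 in Ddx6-KO cells, from 0.04 to -0.13 for the difference of changes, and from 0.11 to -0.01 between the lines at day 2. With it, 315 of 1108 genes called in TOM cells were higher, in place of 538 of 1130, and 372 of 2484 in Ddx6-KO cells, in place of 759 of 1684. At day 2, 1062 of 2647 genes called between the lines were higher with TPM, in place of 1638 of 2995. For the difference of changes, 193 of 559 were higher, in place of 320 of 663. Each Notch gene that was called kept its direction and its call under TPM, and Rbpj in TOM cells was then called lower as well.

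Notch1 (chr2:26457903-26516663, minus strand) encodes a receptor that is broadly used in development. Its level was 2.29 and 4.26 FPKM in TOM day 0 and 6.07 and 11.9 FPKM in TOM day 2. The knockout line had 0.867 and 0.518 FPKM before induction, and 0.723 and 2.36 FPKM after it. Both TOM day 2 libraries were above all others, and every Ddx6-KO library but the second at day 2 was below every TOM library. These FPKM stand for approximately 135 to 452 fragments in TOM libraries and 10 to 55.7 in Ddx6-KO libraries. At day 2, Notch1 was lower in Ddx6-KO cells by a log2 difference of -1.99 ± 0.44 (SE, n = 2 libraries per group, adjusted p = 0.0220, limma). At day 0 the difference was -1.31 ± 0.44 and did not pass (adjusted p = 0.11, limma). The change over induction was 1.2 ± 0.44 in TOM cells (adjusted p = 0.178, limma) and 0.52 ± 0.44 in Ddx6-KO cells (adjusted p = 0.515, limma). Leaving out each library in turn gave 0.76 to 1.64 in TOM cells, and 0.033 to 1.00 in Ddx6-KO cells, where in both lines the second day 2 library gave the lowest value when left out. Without TOM day 2 library 2, the highest library, the day 2 difference was -1.55 (adjusted p = 0.115, limma), and without Ddx6-KO day 2 library 1 it was -1.51 (adjusted p = 0.0972, limma). With no filter on low values its adjusted p was 0.0520 (limma).

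Notch2 (chr3:98013527-98150361, plus strand), the most abundant receptor in all libraries but those of TOM day 2, had the reverse order between the lines. It was at 6.64 and 9.56 FPKM in TOM day 0, 6.36 and 9.82 in TOM day 2, 14.4 and 13.9 in Ddx6-KO day 0, and 11.8 and 13.6 in Ddx6-KO day 2. All 4 Ddx6-KO libraries were above all 4 TOM libraries. The log2 difference between the lines was nevertheless not called, at 0.76 ± 0.25 (SE) at day 0 (adjusted p = 0.0978, limma) and 0.62 ± 0.25 at day 2 (adjusted p = 0.125, limma), or 0.34 at day 2 without TOM day 2 library 1. Over induction, Notch2 differed by -0.01 (95% interval -0.58 to 0.57) in TOM cells and by -0.15 (-0.73 to 0.42) in Ddx6-KO cells. The days overlapped in TOM cells, while in Ddx6-KO cells both day 0 libraries were above both day 2 libraries.

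Notch3 (chr17:32120820-32166852, minus strand) was low, from 0 in TOM day 2 library 1 to 0.426 FPKM in Ddx6-KO day 2 library 1, and was not tested. Its levels in the 4 Ddx6-KO libraries, 0.211 to 0.426 FPKM, were above the 4 TOM libraries, whose highest was 0.149 FPKM. They rest on approximately 4.97 to 10.9 fragments a library in Ddx6-KO cells. The value of 0 in TOM day 2 library 1 allows up to 3 fragments. An antisense gene, Gm17276, overlaps Notch3, and no source used here says whether counting used strand. Other annotated genes with a value overlap Notch1, Notch2, Dll1 and Rbpj, at up to 2.77 FPKM. Of the wider pathway genes named here, Notch4, Egfl7, Fbxw7, Snw1, Maml3 and Kdm5a share positions with other genes. These overlaps make the levels of the genes uncertain.

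The balance of the receptors within a library does not depend on the scaling between libraries, and is given as a description chosen after the values had been seen. The ratio of Notch1 to Notch2 FPKM was 0.345 and 0.446 in TOM day 0 and 0.954 and 1.22 in TOM day 2. The Ddx6-KO ratios were 0.0600 and 0.0372 before induction, and 0.0612 and 0.174 after it. The highest ratio in the knockout line was below the lowest in the control line. Of the summed FPKM of the receptors, Notch4 included, Notch1 made up 22.8% to 48.2% in TOM libraries and 3.50% to 12.9% in Ddx6-KO libraries. Notch4, an endothelial receptor, was uneven between libraries of a group, with 34.1% and 11.6% of the sum in TOM day 2 and 8.77% and 0.904% in Ddx6-KO day 0.

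**Figure D3:**
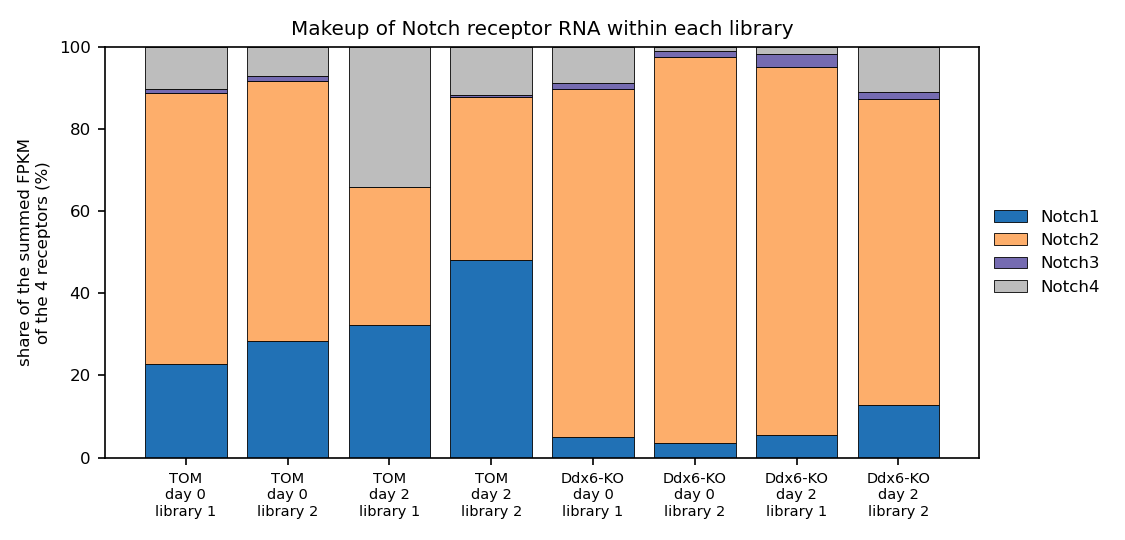
Share of each Notch receptor in the summed FPKM of Notch1, Notch2, Notch3 and Notch4 (percent, vertical axis) in each of the 8 libraries. Notch1 takes 22.8% to 48.2% in the 4 TOM libraries and 3.50% to 12.9% in the 4 Ddx6-KO libraries, where Notch2 takes 74.3% to 94.2%.

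Among the ligands, Jag1 (chr2:137081456-137116644, minus strand), a ligand of the Jagged family, varied most. It was at 3.48 and 3.6 FPKM in TOM day 0 and at 12 and 10.5 FPKM in TOM day 2. The Ddx6-KO levels were 1.22 and 0.763 FPKM at day 0 and 2.07 and 3.05 FPKM at day 2. No groups overlapped, in the order TOM day 2, TOM day 0, Ddx6-KO day 2 and Ddx6-KO day 0. Jag1 rose in TOM cells by 1.43 ± 0.24 on the log2 scale (SE, adjusted p = 0.0127, limma). In Ddx6-KO cells the difference was 0.84 ± 0.24 (adjusted p = 0.0717, limma). The difference between these changes was -0.60 (95% interval -1.39 to 0.20, adjusted p = 0.410, limma), so that a smaller rise in Ddx6-KO cells was not shown. Between the lines, Jag1 was lower in Ddx6-KO cells by a log2 difference of -1.2 ± 0.24 at day 0 (adjusted p = 0.0214, limma) and -1.79 ± 0.24 at day 2 (adjusted p = 0.00367, limma). The day 2 call held in all 17 alternative settings (adjusted p 0.00190 to 0.0454, limma). The TOM call and the day 0 call each failed without any single one of their 4 libraries, with adjusted p of 0.0635 to 0.0948 and of 0.0787 to 0.144 (limma).

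The summed level of adipocyte markers moved with the day 2 differences. It was 535 to 557 FPKM in TOM day 2 and 7.57 to 10.9 FPKM in Ddx6-KO day 2. Fabp4 made up most of it, at 520 and 496 FPKM in TOM day 2. Adipoq, Cidec, Plin1 and Cfd also had lower means in Ddx6-KO day 2, and Lep a higher mean. Jag1 was also lower in Ddx6-KO cells at day 0. There the sums were 19.4 to 23.4 FPKM in TOM cells and 28.3 to 28.9 FPKM in Ddx6-KO cells. Most of these sums was Fabp4 as well, while Adipoq, Cidec, Plin1 and Cfd had lower means in Ddx6-KO day 0. Pericyte and smooth muscle markers, mainly Acta2, summed to 54.1 to 56.5 FPKM in TOM day 0 and 5.08 to 10.5 FPKM in the other groups. Summed preadipocyte and fibroblast markers also moved with the line, at 2020 to 2201 FPKM in TOM day 0 and 1483 to 1543 FPKM in TOM day 2 against 1215 to 1217 FPKM in Ddx6-KO day 0 and 1216 to 1244 FPKM in Ddx6-KO day 2. Among them, Pdgfra, Thy1, Ly6a, Dlk1 and Vim had lower means in Ddx6-KO day 0 than in TOM day 0. Means of Pdgfrb, Cd34, Col1a1 and Col1a2 were higher there. The largest drops in FPKM were those of Vim (mean 773 to 357) and Dlk1 (487 to 63.6). Thy1 was at 10.2 and 10.6 FPKM in TOM day 0 and at 0.333 and 0.351 FPKM in Ddx6-KO day 0. At day 2, Thy1, Ly6a, Dlk1 and Vim had lower means in Ddx6-KO than in TOM cells. Pdgfra, Pdgfrb, Cd34 and Col1a2 had higher means there, and the Col1a1 mean was 104 FPKM in both lines. The part of cell state in the Notch gene differences was not tested.

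The Delta-family ligand Dll1 (chr17:15367354-15376872, minus strand) was low and did not separate the groups. It was at 0.711 and 0.493 FPKM in TOM day 0, 0.715 and 1.34 in TOM day 2, 0.644 and 0.985 in Ddx6-KO day 0, and 0.196 and 1.44 in Ddx6-KO day 2. The lowest of these stands for approximately 1.0 fragment, and all groups overlapped except TOM day 0 and TOM day 2. Log2 differences were 0.18 (95% interval -0.77 to 1.13) between the lines at day 0 and -0.23 (-1.18 to 0.72) at day 2. At these levels even a complete loss would be a small difference on the log2(FPKM + 1) scale, so that the values are not compared with those of Jag1. Jag2 (chr12:112907819-112929776, minus strand), the other Jagged ligand, was at 0.0712 to 0.517 FPKM, and was not tested. It reached its highest level in Ddx6-KO day 2 library 1, on approximately 3.80 fragments, while library 2 of that group had 0.101 FPKM.

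Rbpj (chr5:53466152-53657362, plus strand) had a higher level in each day 0 library of a line than in its day 2 libraries. It was at 7.42 and 10.3 FPKM in TOM day 0 and 4.31 and 3.67 in TOM day 2. Ddx6-KO libraries had 18.5 and 15.5 FPKM at day 0 and 8.26 and 5.43 at day 2. TOM day 0 and Ddx6-KO day 2 overlapped, and no other groups did. Rbpj fell by 1.22 on the log2 scale in Ddx6-KO cells (SE 0.25, adjusted p = 0.0243, limma), and differed by -0.97 ± 0.25 in TOM cells (adjusted p = 0.0655, limma). The difference of the changes was -0.25 (95% interval -1.07 to 0.58). The log2 difference between the lines was 0.88 ± 0.25 at day 0 (adjusted p = 0.0673, limma) and 0.63 ± 0.25 at day 2 (adjusted p = 0.122, limma). The day 0 difference was called with a pseudocount of 5 (adjusted p = 0.0479, limma) and with a filter at 5 FPKM (0.0456, limma), and the day 2 difference was 0.37 without Ddx6-KO day 2 library 1. The call in Ddx6-KO cells failed without Ddx6-KO day 0 library 1 or 2 or Ddx6-KO day 2 library 2, with adjusted p of 0.0888 to 0.166 (limma).

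The Rbpj values are uncertain because reads may be shared with copies of the gene. A processed pseudogene, Rbpj-ps3 (chr6:46529354-46530794, minus strand), named here after its values were seen, was listed at 24.0 and 27.7 FPKM in TOM day 0 and 12 and 12.6 in TOM day 2. The knockout line had 47.4 and 56.1 FPKM of it at day 0 and 12.6 and 13.8 later. It was thus listed above Rbpj in every library, and the files do not show how reads were divided between the loci. Rbpj-ps3 was lower at day 2 by a log2 difference of -1.01 ± 0.16 in TOM cells (adjusted p = 0.00888, limma) and -1.89 ± 0.16 in Ddx6-KO cells (adjusted p = 0.000611, limma). It was higher in Ddx6-KO cells at day 0, by 0.97 ± 0.16 (adjusted p = 0.00966, limma), while the day 2 difference was 0.09 (95% interval -0.28 to 0.46). The TOM call failed without TOM day 2 library 1 or 2 (adjusted p 0.0668 and 0.0533, limma), and the day 0 call without Ddx6-KO day 0 library 1 or 2, or without the first TOM library of that day (0.0513, 0.0961 and 0.0552, limma). The related gene Rbpjl was at 0.232 to 0.565 FPKM.

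Of the targets, Hes1 (chr16:30064384-30067796, plus strand), a repressor that Notch signaling induces in many tissues, was the only gene of its list to pass the filter. Its level was 4.89 and 5.15 FPKM in TOM day 0 and 7.34 and 4.21 FPKM in TOM day 2. The Ddx6-KO libraries held 1.36 and 1.06 FPKM at day 0, and 0.513 and 1.38 FPKM on induction. Every Ddx6-KO library was below every TOM library, and within a line the days overlapped. Hes1 was lower in Ddx6-KO cells by a log2 difference of -1.45 ± 0.33 at day 0 (SE, adjusted p = 0.0317, limma) and -1.80 ± 0.33 at day 2 (adjusted p = 0.0113, limma). Its change over induction was 0.13 (95% interval -0.63 to 0.90) in TOM cells and -0.22 (-0.98 to 0.55) in Ddx6-KO cells, and the TOM value became -0.06 with TPM. The Ddx6-KO levels rest on few fragments, approximately 10.2 and 5.0 at day 0 and 1.0 and 4.61 at day 2, against 15 to 136 in TOM libraries. The day 0 call failed without any single one of its 4 libraries (adjusted p 0.121 to 0.183, limma), and with a pseudocount of 0.1, no filter or a block by library number (0.0503, 0.0764 and 0.0558, limma). At day 2 it failed without TOM day 2 library 1 (0.0685, limma) or Ddx6-KO day 2 library 1 (0.0535, limma).

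Hey1 and Heyl, repressors of the other target family, were near the limit of detection. Hey1 (chr3:8663359-8667256, minus strand) was at 0.387 to 0.787 FPKM in the TOM libraries and 0.389 to 1.61 in 3 Ddx6-KO libraries, and had no fragment in Ddx6-KO day 2 library 1, which allows up to 3. Heyl (chr4:123233556-123249875, plus strand) was at 0.252 and 0.202 FPKM in TOM day 0, 0.0929 and 0.0840 in TOM day 2, 0.160 and 0.127 in Ddx6-KO day 0, and 0.613 and 0.449 in Ddx6-KO day 2. The last group was the highest, on approximately 3.99 and 4.98 fragments. Without the filter, when all 10 genes were tested, neither was called between the lines at either day with limma, where the called genes were Jag1 at day 0 and Jag1 and Hes1 at day 2.

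Dlk1 was far more abundant than the canonical ligands, at 358 and 616 FPKM in TOM day 0, 167 and 175 in TOM day 2, 70.3 and 57.0 in Ddx6-KO day 0, and 27.9 and 13.5 in Ddx6-KO day 2. No groups overlapped. It was lower in Ddx6-KO cells by a log2 difference of -2.87 ± 0.36 at day 0 (adjusted p = 0.00383, limma) and -3.07 ± 0.36 at day 2 (adjusted p = 0.00222, limma). Over induction it fell by 1.65 on the log2 scale in Ddx6-KO cells (adjusted p = 0.0294, limma) and differed by -1.45 ± 0.36 in TOM cells (adjusted p = 0.0569, limma). The TOM difference was called with a pseudocount of 5, a filter at 5 FPKM, TPM or median-ratio scaling, and without either Ddx6-KO day 2 library (adjusted p 0.0329 to 0.0440, limma). The Ddx6-KO call failed with no filter, no variance trend, a block by library number or the comparison libraries alone (adjusted p 0.0507 to 0.0979, limma) and without 5 of the 8 libraries in turn (0.0556 to 0.183, limma), and the day 0 call between the lines without Ddx6-KO day 0 library 2 (0.0542, limma). Dlk1 and Jag1 were both lower in Ddx6-KO cells, while over induction the sign of their differences was opposite in both lines.

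The wider pathway was described with 54 further genes, of which 42 passed the filter. In TOM cells 0 of the 42 were called over induction with limma, where 3.4% of all tested genes rose and 3.74% fell. An unadjusted p under 0.05 (limma) was reached by 7 of the 42, against 3270 of all 15811 tested genes. In Ddx6-KO cells 2 rose, against 4.8% of all tested genes, and 1 fell, namely Dlk1, against 5.85%. Comparing the lines at day 0 called 2 genes higher, against 6.55% of all tested genes, and 3 lower, against 4.81%. The same comparison on day 2 called 5 higher, against 10.4% of all tested genes, and 2 lower, against 8.58%. For the difference of changes, 1 was called higher, against 2.02% of all tested genes, and 0 lower, against 2.17%. There 4 of the 42 had an unadjusted p under 0.05 (limma), against 2916 of all 15811 tested genes. The median log2 difference of the 42 was 0.10, 0.11, -0.01 and 0.16 for the TOM change, the Ddx6-KO change, day 0 and day 2, against 0.03, 0.09, 0.05 and 0.11 over all genes. The cleavage enzymes, which include the gamma-secretase subunits, had no called gene among 9 tested in any comparison with limma. In each comparison, 1 or 2 of the 9 had an unadjusted p under 0.05 (limma), against 2916 to 5414 of all 15811 tested genes. Between 4.19% and 18.9% of all tested genes were called in these comparisons, a background at which 0 of 9 is not a result about the group.

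Dtx4, a member of the Deltex family of ubiquitin ligases that act on Notch, differed between the lines in its change over induction, by 2.22 ± 0.32 on the log2 scale (SE, adjusted p = 0.0126, limma). It was at 2.17 and 2.15 FPKM in TOM day 0, 0.725 and 0.590 in TOM day 2, 1.37 and 1.73 in Ddx6-KO day 0, and 5.27 and 5.12 in Ddx6-KO day 2. The Ddx6-KO day 2 libraries were the highest and the TOM day 2 libraries the lowest. They rest on approximately 39.7 and 65.7 fragments in Ddx6-KO day 2 and only 9.01 and 8.10 in TOM day 2. Dtx4 rose in Ddx6-KO cells by 1.28 ± 0.23 on the log2 scale (SE, adjusted p = 0.0144, limma), and was higher in Ddx6-KO cells at day 2 by 1.90 ± 0.23 (adjusted p = 0.00248, limma). The call of the rise failed with the comparison libraries alone (adjusted p = 0.0669, limma). It also failed without Ddx6-KO day 0 library 1 or 2 or Ddx6-KO day 2 library 1 (log2 difference 1.18 to 1.39). Fbxw7, the ubiquitin ligase subunit that marks the Notch intracellular domain for degradation, was at 3.55 and 4.56 FPKM in Ddx6-KO day 0 and 8.93 and 10.1 in Ddx6-KO day 2. It rose there by 1.06 ± 0.20 (adjusted p = 0.0183, limma). The call ended with TPM (adjusted p = 0.0747, limma) or the comparison libraries alone (0.0754, limma). It also ended without any single Ddx6-KO library (log2 difference 0.92 to 1.21). In the TOM libraries, in the same order, Fbxw7 was at 4.52, 3.64, 6.83 and 6.68 FPKM.

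Egfl7, a secreted protein that binds Notch receptors and is best known from endothelium, was higher in Ddx6-KO cells. Its Ddx6-KO levels were 9.37 and 7.74 FPKM before induction and 6.12 and 4.17 FPKM after it, against 1.37 to 2.80 FPKM in TOM libraries. The log2 difference was 1.38 ± 0.24 at day 0 (adjusted p = 0.0121, limma) and 1.29 ± 0.24 at day 2 (adjusted p = 0.0116, limma). Summed endothelial markers were 1.29 to 2.47 FPKM in Ddx6-KO day 0 and 3.74 to 6.39 FPKM in Ddx6-KO day 2, against 0.832 to 1.78 FPKM in TOM libraries. Pecam1, the only 1 of the 6 to pass the filter, was at 2.54 and 3.41 FPKM in Ddx6-KO day 2. At day 2, Kdr, Tie1 and Tek also had higher means in Ddx6-KO than in TOM cells, and Cdh5 and Emcn lower means. The part of these markers in the Egfl7 difference was not tested. Poglut1, which glycosylates the extracellular repeats of Notch, was lower at day 0, with 8.53 and 8.91 FPKM in Ddx6-KO against 16.2 and 15.3 in TOM cells (-0.79 ± 0.17, adjusted p = 0.0262, limma). Both day 0 calls depended on single libraries. That of Egfl7 failed without Ddx6-KO day 0 library 1 or 2, or without the first TOM library of that day (log2 difference 1.26 to 1.51). That of Poglut1 failed without any of the 4 day 0 libraries (-0.83 to -0.75). It also failed with no variance trend (adjusted p = 0.0537, limma) and with the comparison libraries alone (0.0546, limma). At day 2, Egfl7 failed with the comparison libraries alone (adjusted p = 0.0808, limma). It also failed without TOM day 2 library 1 or 2 or Ddx6-KO day 2 library 1 (log2 difference 1.06 to 1.36).

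In the nuclear complex, Snw1, a splicing and transcription cofactor that binds Rbpj, was lower in Ddx6-KO cells at both days. It was at 29.6 and 28.9 FPKM in Ddx6-KO day 0 and 22.4 and 26.2 in Ddx6-KO day 2, against 53.1 and 46.5 in TOM day 0 and 70.8 and 57.4 in TOM day 2. The log2 difference was -0.75 ± 0.16 at day 0 (adjusted p = 0.0273, limma) and -1.36 ± 0.16 at day 2 (adjusted p = 0.00231, limma). Snw1 overlaps Slirp. Its day 0 call ended with TPM, no filter, no variance trend or the comparison libraries alone (adjusted p 0.0526 to 0.0701, limma). It also ended without any of the 4 libraries of that day (log2 difference -0.84 to -0.65). Maml3, a coactivator of the Mastermind family, was at 4.62 and 7.16 FPKM in Ddx6-KO day 2 against 1.2 and 1.81 in TOM day 2. The log2 difference was 1.45 ± 0.30 (adjusted p = 0.0177, limma). That call failed with the comparison libraries alone (adjusted p = 0.0828, limma). It also failed without TOM day 2 library 1 or 2 or Ddx6-KO day 2 library 2 (log2 difference 1.18 to 1.62). Kdm5a, a histone demethylase of the corepressor complex, had 42.2 and 31.9 FPKM in Ddx6-KO against 19.2 and 23.4 in TOM at day 2. The log2 difference was 0.77 ± 0.21 (adjusted p = 0.0456, limma). This call ended with TPM, no filter, median-ratio scaling, no variance trend or the comparison libraries alone (adjusted p 0.0668 to 0.108, limma). It also ended without any of the 4 day 2 libraries (log2 difference 0.57 to 0.96) and without either Ddx6-KO day 0 library. All 8 coactivators and all 8 corepressors on the lists passed the filter, and at day 2 1 coactivator was higher, 1 coactivator lower and 1 corepressor higher, against 10.4% of all tested genes higher and 8.58% lower.

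**Figure D4:**
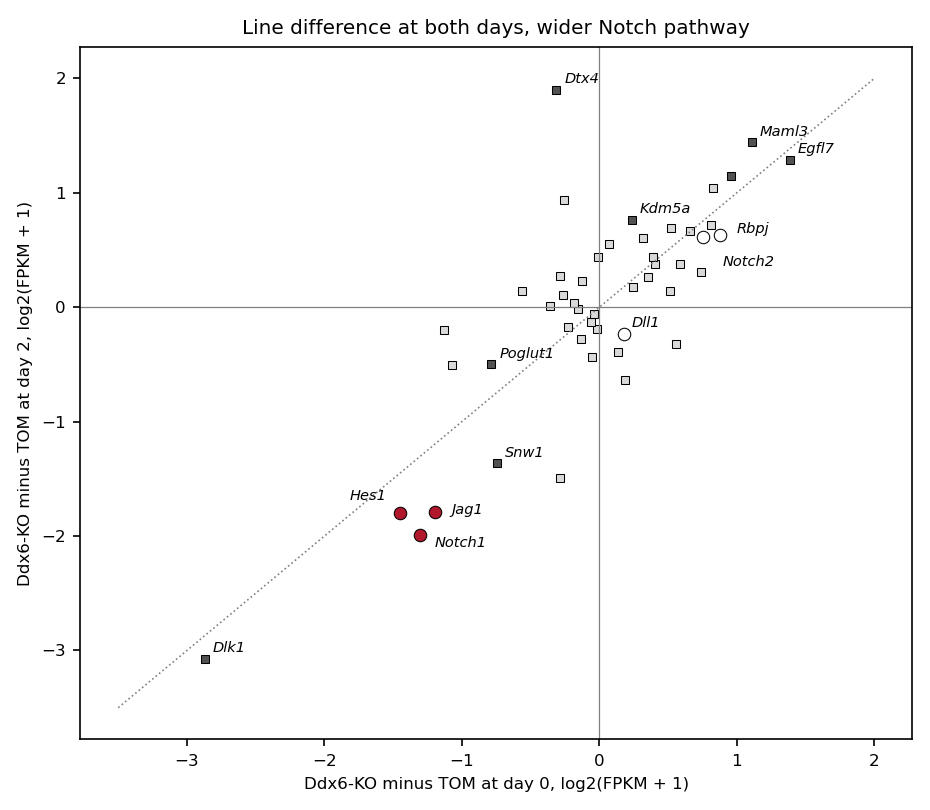
Difference between Ddx6-KO and TOM cells in log2(FPKM + 1) at day 0 (horizontal axis) and at day 2 (vertical axis) for the tested genes of the wider Notch pathway. Circles are the 6 tested genes of the fixed list, filled red where called at either day, squares are the 42 others, dark where called, and the dotted line marks equal differences. Notch1, Jag1 and Hes1 lie at the lower left with Dlk1 at -2.87 and -3.07, and Dtx4 lies alone at the top with a difference at day 2 of 1.90. The unlabelled squares are genes not called, apart from 1 called gene.

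For the 3 genes of the list that varied most between groups, the genes with the most similar pattern were sought among 7042 protein-coding genes with a mean of at least 5 FPKM, by Pearson correlation over the 8 libraries on the log2 scale. For Jag1 these included H2afx (r = 0.991), a histone variant of the DNA damage response, and Gtf2h3 (0.988), a subunit of the transcription factor TFIIH. Notch1 was most like Slc1a5 (0.957), a glutamine transporter, Dad1 (0.953), a subunit of the oligosaccharyltransferase, and Rbm26 (0.953), an RNA-binding protein. Hes1 was most like Mrps30 (0.983), a mitochondrial ribosomal protein, Ces1f (0.980), a carboxylesterase, and Slirp (0.979), a mitochondrial RNA-binding protein. All points share the 4 groups, the lines and the depths of the libraries, and these correlations are descriptions only.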

How the data were processed

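Total RNA of 8 libraries was sequenced as 100-base paired ends after stranded library preparation. Per the labels and the study's methods, the authors aligned reads to GRCm38/mm10 with TopHat2 2.1.0 after quality control with FastQC 0.11.2 and other tools, and deposited FPKM per gene from Cufflinks 2.2.1. No source used here gives the annotation release. GENCODE M21 gave symbols to 45139 of 46073 identifiers, and RefSeq gave promoters. No deposited column of another sample was present. Libraries 1 and 2 of a group follow the column numbers, which match the replicate numbers in the labels only in part.

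The analysis used log2(FPKM + 1) of the 15811 genes that reached 1 FPKM in 2 or more libraries. Using limma 3.58.1 (R 4.3.3), 1 mean per group was estimated from all 8 libraries with a variance trend, for 5 comparisons, and the code was tested on simulated data. Every adjusted p is from limma with Benjamini-Hochberg adjustment within a comparison and a threshold of 0.05. Read counts were not used. Fragments per gene are approximations from the FPKM, the longest transcript and the depth that the spacing of low values gave, and intervals or floors from them cover counting error only. Tables were made with Python 3.11.15 and pandas 2.3.3.

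The members and the gene lists were chosen with earlier results of these data known. The text names all members, Ddx6, Dlk1, up to 4 called genes of each of 9 pathway lists by smallest p, and for the 3 most variable members the 3 genes most like them. Genes that this rule would name but the text does not are not reported here by name, and those of the pathway lists are still counted. Alternatives were other pseudocounts (0.1 and 5), no filter or 5 FPKM, TPM and median-ratio scaling, no variance trend, the libraries of a comparison alone, a replicate block, and leaving out each library.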

Additional observations from a re-analysis of the deposited data

Results flagged for a closer look

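The change of Dtx4 over induction differed between the lines by 2.22 on the log2(FPKM + 1) scale (SE 0.32, adjusted p = 0.0126, limma), tested as the difference of the changes in a fit of all genes. Ddx6-KO cells had 1.37 and 1.73 FPKM at day 0 and 5.27 and 5.12 FPKM at day 2. TOM cells had 2.17 and 2.15 FPKM at day 0 and 0.725 and 0.590 FPKM at day 2. The TOM day 2 values rest on approximately 9.01 and 8.10 fragments. The call failed without TOM day 2 library 2 (adjusted p = 0.0530, limma) and without Ddx6-KO day 0 library 1 or 2 (0.0745 and 0.0604, limma).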

How the results depend on the processing

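Counts of called Notch genes depended on the setting. In TOM cells 1 became 2 with a filter at 5 FPKM, TPM or median-ratio scaling, which added Rbpj, and 0 with the libraries of the comparison alone. In Ddx6-KO cells 1 became 0 with no filter or the comparison libraries alone. Between the lines at day 0, 2 became 3 with a pseudocount of 5 or a filter at 5 FPKM, which added Rbpj as higher in Ddx6-KO cells (adjusted p 0.0479 and 0.0456, limma), and 1 with a pseudocount of 0.1, no filter, the comparison libraries alone, or a replicate block by column number, which was chosen after seeing the data and changed no other call of the 6 Notch genes but ended those of Dlk1 in Ddx6-KO cells (adjusted p = 0.0509, limma) and Kdm5a at day 2 (0.0639, limma). At day 2, 3 became 1 with the comparison libraries alone. Leaving out each library in turn gave 0 to 1 called genes in TOM cells, 0 to 1 in Ddx6-KO cells, 0 to 0 for the difference of changes, 0 to 2 between the lines at day 0 and 1 to 3 at day 2. The cause was not tested. Log2 differences that changed sign were of genes not called. Hes1 in TOM cells was -0.063 with TPM and -0.21 to 0.47 without each library, and Rbpj-ps3 between the lines at day 2 was -0.077 with TPM and -0.055 with median-ratio scaling. Without each library, Notch2 in TOM cells ranged from -0.29 to 0.27, and Dll1 and Hes1 in Ddx6-KO cells from -0.60 to 0.43 and from -0.54 to 0.11. The difference of changes ranged from -0.42 to 0.14 for Notch2, -0.70 to 0.30 for Dlk1, -0.63 to 0.13 for Ddx6, -0.92 to 0.11 for Dll1 and -0.51 to 0.018 for Rbpj, and Dll1 between the lines at day 2 from -0.75 to 0.28. Deviations of same-numbered libraries from their group means correlated across genes at r of -0.0958 to 0.0666. No strong shared effect was visible, but whether the numbers pair libraries cannot be told from this. A block by label number could not be run because the columns do not carry it. Depths of 1480000 to 5690000 fragments in 7 libraries limit Notch3, Jag2, Dll1, Hey1 and Heyl.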
